A study of Mus musculus with 6 samples.

Results

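The 8 genes described here form the oxygen-sensing switch of the hypoxia response. They are the HIF alpha factors *Hif1a*, *Epas1* and *Hif3a*, the prolyl hydroxylases *Egln1*, *Egln2* and *Egln3*, the asparaginyl hydroxylase *Hif1an* and the ligase subunit *Vhl*. *Egln3* was chosen by its measured difference between Cul5-deficient and WT cells in these same samples, and the other 7 were then taken as its family, by name. All 8 were found in the authors' gene-level table and in the files of each sample, out of 22559 genes with a count in at least 1 sample, and all 8 passed the expression filter that left 12925 genes to be tested.

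The RNA came from naive CD4+ T cells of the spleen and lymph nodes of C57BL/6 mice, cultured for 48 h under Th9 conditions, with plate-bound anti-CD3, soluble anti-CD28, IL-4, TGF-β and anti-IFN-γ. WT mice were Cul5fl/fl littermates without Cre, and Cul5 cKO mice were Cul5fl/fl with CD4-Cre, so that both genotypes carried *Cul5* alleles with LoxP sites around exons 9 to 11. The mice were 8 to 10 weeks old. CD4-Cre acts in the T cell lineage as a whole, before cells are CD4 or CD8 T cells, so the deletion dates from their development in the thymus. There were 3 samples of each genotype, examined in a single experiment, and because no source states that each came from its own mouse, p-values measure the spread between these samples only.

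When oxygen is present, the EGLN enzymes hydroxylate prolines of the HIF alpha proteins, using oxygen, iron and 2-oxoglutarate. VHL binds the hydroxylated protein and, with elongins B and C and the cullin CUL2, has it ubiquitinated and degraded, while HIF1AN hydroxylates an asparagine and blocks the binding of coactivators. CUL5, the cullin deleted here, uses the same elongins but works with SOCS box receptors rather than VHL. In T cells HIF-1α is known to rise after activation and to drive glycolytic genes, and *Egln3* and *Egln1* are themselves HIF target genes, which closes a feedback loop. Most of this control acts on protein, which was not measured, so the values here are levels of mRNA.

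In Cul5 cKO cells *Egln3* mRNA was 2.29 times its mean in WT cells, and *Hif1a* and *Egln1* were 1.41 and 1.21 times theirs. *Epas1* and *Hif3a*, both at low levels, had Cul5 cKO means of 0.593 and 0.616 times WT. *Egln2*, *Hif1an* and *Vhl* were within 0.967 to 1.07 times WT. In replicates 2 and 3 alone, since replicate 1 of both genotypes stood apart, the log2 fold changes were 1.30 for *Egln3*, 0.50 for *Hif1a* (adjusted p = 0.0134, edgeR), 0.23 for *Egln1* (0.0590), -1.01 for *Epas1* (0.0710) and -0.91 for *Hif3a* (0.0907). In edgeR's fit of all 6 samples, with the quasi-likelihood test and adjustment over all 12925 genes, 0 of the 7 genes that came in by name had an adjusted p under 0.05, against 1.03% of all genes tested (0.611% higher and 0.418% lower in Cul5 cKO). At an unadjusted p under 0.05 there were 2 higher, *Hif1a* and *Egln1*, and 1 lower, *Epas1*, where 10.9% of all genes were higher and 10.4% lower. By DESeq2, 1 of the 7 was called, *Hif1a*, where 5.36% of all genes were, and by limma on the authors' log2 values 0 were, where 0.374% of all genes were. In replicates 2 and 3 alone, where *Hif1a* was the 1 of the 7 called, edgeR called 8.83% of all genes.

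**Figure D1:**
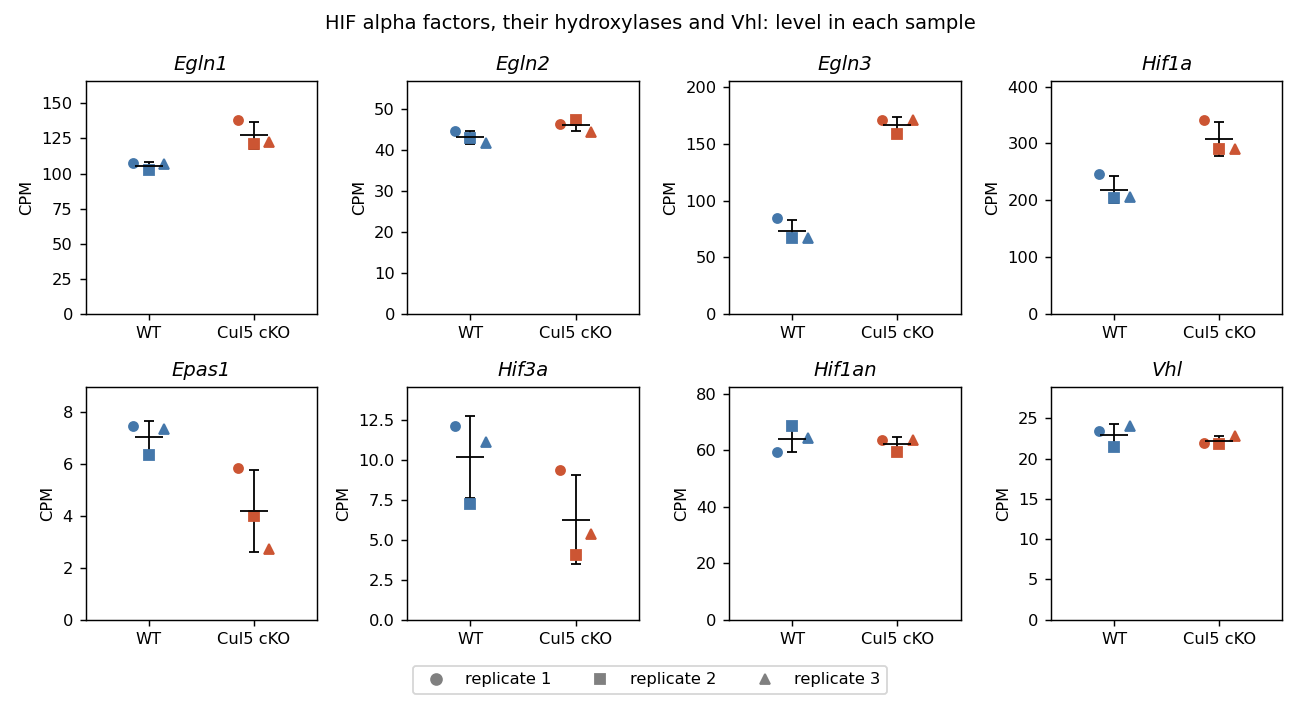
Level of each of the 8 genes in CPM (counts scaled to a common library size, y axis from 0, own scale for each gene) in 3 WT and 3 Cul5 cKO samples. Symbols mark replicates 1 to 3, the wide line is the mean and the bar 1 SD. All 3 Cul5 cKO samples lie above all 3 WT samples for *Egln1*, *Egln3* and *Hif1a*, and below them for *Epas1*.

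The total of the estimated counts was 3944803 in WT replicate 3 and between 23111689 and 23454552 in the other 5 samples, so the values of WT replicate 3 carry the largest counting error. Replicate 1 stood apart from the other replicates in both genotypes, with deviations from the group means that correlated across genes at r = 0.45 for the pair of samples numbered 1. *Cul5* itself was at 64.4, 69.3 and 65.0 CPM in the WT samples and at 10.6, 14.2 and 13.1 CPM in the Cul5 cKO samples. The log2 fold change of *Cul5* was -2.39 (SE 0.115, adjusted p = 0.000992, edgeR). The T cell label held in all samples, with *Cd4* between 440.1 and 469.5 CPM, and *Il9*, the cytokine that defines Th9 cells, was at 298 to 355 CPM in WT and 729 to 1021 CPM in Cul5 cKO. *Spi1*, which encodes the Th9 factor PU.1, was at most 0.213 CPM in WT and at 0.130, 6.05 and 1.24 CPM in Cul5 cKO. In Cul5 cKO replicate 2, where it was highest, the myeloid markers *Csf1r* and *Lyz2* were at 2.63 and 2.80 CPM, against at most 0.173 and 0.260 CPM in the other samples. *Adgre1* and *Itgax* were at 2.98 and 1.80 CPM in that sample, against at most 2.09 and 1.35 CPM in the others. *Itgam* was at 2.50 CPM there, inside its WT range of 1.84 to 5.93 CPM, and *Cd14* was at 0.0438 CPM. Of the 8 markers of CD4 T cells, 1 fell (12.5%, against 0.418% of all genes tested). It was the costimulatory receptor *Cd28*, with a log2 fold change of -1.17 (adjusted p = 0.0205, edgeR). In 6 of the 8 (75.0%, against 13.5% of all genes tested) all Cul5 cKO samples were below all WT samples. The sum of the 8 markers was 1979 to 2124 CPM in WT and 1729 to 1873 CPM in Cul5 cKO, lower in each Cul5 cKO sample than in each WT sample. Summed over its list, each other cell type had ranges that overlapped between the genotypes except the erythroid list. B cell markers were at 82.0 to 113 CPM in WT and 35.5 to 121 CPM in Cul5 cKO, myeloid markers at 4.27 to 8.65 and 3.69 to 12.8, CD8 and NK markers at 9.86 to 16.1 and 10.1 to 21.8, and endothelial markers at 19.0 to 30.9 and 14.3 to 24.6. The erythroid markers were at 0 to 0.811 CPM in WT and 0.978 to 2.19 CPM in Cul5 cKO, near the floor of 3 counts, which is 0.759 CPM in WT replicate 3. *Ncr1* was at 0 in all samples, and of the endothelial markers *Cdh5*, *Tek* and *Kdr* were at 0.219 CPM or less in each sample, so nearly all of that sum was *Pecam1*. Whether other cell types had a part in the differences given here was not tested, and in a bulk sample fewer cells with a transcript and less of it per cell cannot be told apart.

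The promoters of *Egln3*, *Egln1* and *Hif1a* are shown because these are the 3 genes of the family whose samples were all higher in Cul5 cKO. The window searched is the 250 bases before the transcription start in RefSeq's annotation of GRCm38.p6, written 5′ to 3′ on the strand of the gene. The *Egln3* window lies upstream of the gene's first exon, the *Hif1a* window in the first intron of Hif1a-202, a transcript that starts farther upstream, and the last 70 bases of the *Egln1* window fall in its first exon in the GENCODE annotation and are left out, so that 180 are shown. Capitals mark the core of the hypoxia response element, the motif that HIF dimers are known to bind, searched as ACGTG and GCGTG on both strands, where it overlaps the E-box motif CACGTG.
*Egln3*, chr12:54203875-54204124, minus strand: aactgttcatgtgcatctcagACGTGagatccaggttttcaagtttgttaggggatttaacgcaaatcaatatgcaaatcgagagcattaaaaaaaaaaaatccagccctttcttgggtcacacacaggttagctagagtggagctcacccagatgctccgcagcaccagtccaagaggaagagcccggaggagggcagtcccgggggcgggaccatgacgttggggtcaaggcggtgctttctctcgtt
*Egln1*, chr8:124949325-124949504, minus strand: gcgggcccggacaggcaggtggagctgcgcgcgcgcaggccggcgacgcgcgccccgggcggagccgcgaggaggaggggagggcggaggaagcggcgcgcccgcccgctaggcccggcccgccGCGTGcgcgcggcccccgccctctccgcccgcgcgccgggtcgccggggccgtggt
*Hif1a*, chr12:73907617-73907866, plus strand: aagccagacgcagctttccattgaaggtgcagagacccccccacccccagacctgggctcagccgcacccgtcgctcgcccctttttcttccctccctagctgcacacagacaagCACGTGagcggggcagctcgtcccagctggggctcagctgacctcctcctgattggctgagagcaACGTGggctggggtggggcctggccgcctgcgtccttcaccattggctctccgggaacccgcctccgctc
The *Egln3* window held 1 match, which began 229 bases before the start. The *Egln1* window held 2, at 126 and, in the stretch not shown, at 68 bases before the start. The *Hif1a* window held 3, of which 2 were the overlapping strands of a single CACGTG at 135 bases and the other lay at 70 bases before the start. Among the other genes, *Hif3a* held 2 matches, the 2 promoters listed for *Egln2* held 4 and 1, and *Vhl* and *Hif1an* held 0. *Epas1* has no entry in the table used. Of all 32851 promoters in the table, 38.6% held at least 1 match, 16.7% at least 2 and 6.58% at least 3. A match is a string of letters in a short window and says nothing on binding, and elements in introns or farther upstream were not searched.

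Of the prolyl hydroxylases, the mRNAs of *Egln3* and *Egln1* were higher in all Cul5 cKO samples than in all WT samples. *Egln3* (ENSMUSG00000035105, GRCm38 chr12:54178981-54203860, minus strand, 1 transcript of 5 exons) encodes PHD3, the member most readily induced by HIF. It was at 84.7, 67.1 and 67.3 CPM in WT replicates 1 to 3 and at 171, 159 and 171 CPM in Cul5 cKO replicates 1 to 3. The lowest Cul5 cKO sample was thus well above the highest WT sample. The group means were 73.1 ± 10.1 and 167 ± 7.12 CPM (SD, n = 3), and on the log2 scale the difference was 1.19. These values brought the gene in and are given as a description, without a test. Of all genes tested, 3.02% had a larger log2 fold change in either direction. Leaving out any 1 of the 6 samples gave a log2 difference of *Egln3* between 1.12 and 1.32. The reads behind it were 1984, 1552 and 266 in WT and 3934, 3623 and 3854 in Cul5 cKO.

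*Egln1* (ENSMUSG00000031987, chr8:124908587-124949324, minus strand, 1 transcript of 5 exons) encodes PHD2, regarded as the main oxygen sensor of most cells. It was at 108, 102 and 107 CPM in WT and at 138, 121 and 122 CPM in Cul5 cKO. The groups did not overlap, and Cul5 cKO replicate 1 lay further from the other Cul5 cKO samples than these lay from the highest WT sample. The means were 106 ± 2.77 and 127 ± 9.51 CPM (SD, n = 3), which is 0.27 on the log2 scale (SE 0.073, 95% interval 0.10 to 0.44, adjusted p = 0.112, edgeR). With a term for replicate 1 the same difference, 0.27, had an adjusted p of 0.0239.

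*Egln2* (ENSMUSG00000058709, chr7:27158658-27166802, minus strand, 4 transcripts) encodes PHD1, which is not a HIF target in most cells. It was at 44.8, 42.9 and 41.8 CPM in WT and at 46.5, 47.5 and 44.5 CPM in Cul5 cKO, and the groups overlapped. The log2 fold change was 0.09, and its 95% interval of -0.06 to 0.25 leaves room for a small rise or none (adjusted p = 0.464, edgeR).

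Per length, the balance of the 3 enzymes moved to *Egln3*. In TPM, which divides the counts by transcript length, *Egln1* was at 42.3 ± 1.31, *Egln3* at 40.5 ± 5.78 and *Egln2* at 35.8 ± 1.21 in WT (SD, n = 3), and the samples of neighbours in this order overlapped. In Cul5 cKO *Egln3* was at 92.0 ± 4.02, *Egln1* at 50.9 ± 4.50 and *Egln2* at 36.8 ± 1.15 TPM, and here no 2 of the 3 overlapped. The summed TPM of the 3 enzymes was 126, 119 and 111 in the WT samples and 188, 174 and 177 in the Cul5 cKO samples. *Egln3* made up 37.2%, 32.8% and 32.1% of that sum in WT and 50.8%, 50.3% and 52.5% in Cul5 cKO. So it was about level with *Egln1* in WT cells and made up the larger part of prolyl hydroxylase mRNA in Cul5 cKO cells. Its mean share was 17.2 percentage points higher in Cul5 cKO than in WT, a description that follows from the choice of *Egln3*. *Egln1* went from 35.7 ± 1.37% to 28.3 ± 1.36% and *Egln2* from 30.3 ± 1.38% to 20.5 ± 1.25% (SD, n = 3).

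**Figure D2:**
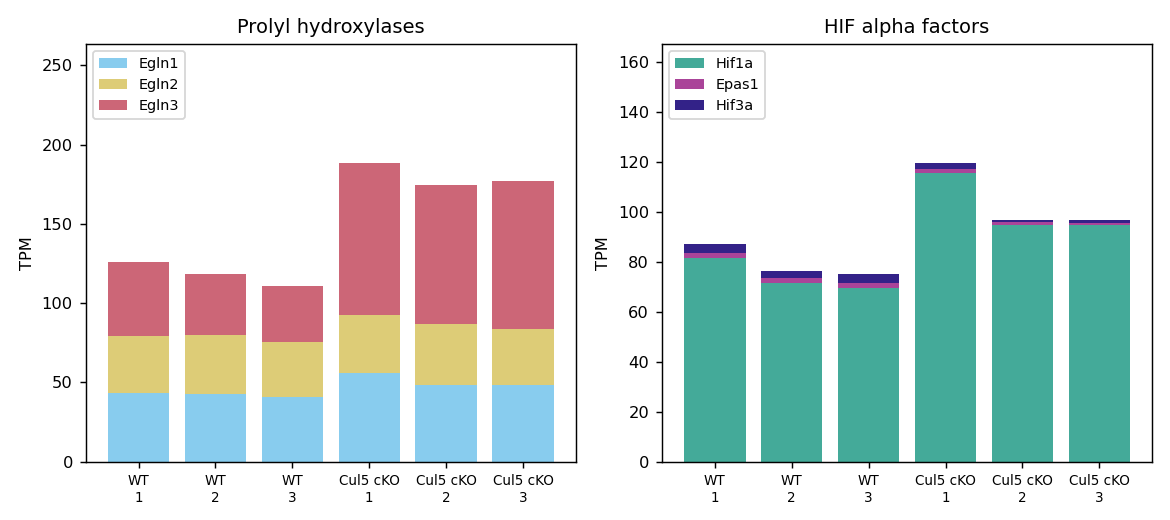
Stacked bars of TPM in each of the 6 samples, for the 3 prolyl hydroxylases (left) and the 3 HIF alpha factors (right). The left bars sum to 111 to 126 TPM in WT and 174 to 188 TPM in Cul5 cKO, with *Egln3* the larger part of the gain. In the right bars *Hif1a* is 92.8% or more of the sum in each sample.

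Among the HIF alpha factors, *Hif1a* (ENSMUSG00000021109, chr12:73901375-73947530, plus strand, 5 transcripts) encodes the factor that leads the response in activated T cells. It was at 246, 204 and 206 CPM in WT and at 342, 289.9 and 290.5 CPM in Cul5 cKO. All 3 Cul5 cKO samples were higher than all 3 WT samples, and replicate 1 was the highest sample of each genotype. The means were 219 ± 23.6 and 307 ± 29.7 CPM (SD, n = 3), which is 0.49 on the log2 scale (SE 0.101, 95% interval 0.25 to 0.73) that missed the threshold with an adjusted p of 0.0724 (edgeR). In replicates 2 and 3 alone it was 0.50 with an adjusted p of 0.0134, by DESeq2 0.49 with 0.000659, and without WT replicate 1 it was 0.59 with 0.0405. Over 18 alternatives the log2 fold change of *Hif1a* was always above 0, between 0.41 and 0.59, and the adjusted p ranged from 0.000659 to 0.259, under 0.05 in 7 of them.

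*Epas1* (ENSMUSG00000024140, chr17:86753700-86833410, plus strand, 2 transcripts) encodes the alpha subunit of HIF-2, best known from endothelial cells. It was at 7.47, 6.36 and 7.34 CPM in WT and at 5.86, 3.99 and 2.71 CPM in Cul5 cKO. All Cul5 cKO samples were lower than all WT samples, by a narrow margin in replicate 1 of Cul5 cKO. The log2 fold change was -0.75 (SE 0.287, 95% interval -1.42 to -0.07, adjusted p = 0.200, edgeR). It rests on 175, 147 and 29 reads in WT and 135, 91 and 61 in Cul5 cKO. Without Cul5 cKO replicate 3 the log2 fold change was -0.51, and without Cul5 cKO replicate 1 it was -1.06. *Pecam1*, the endothelial marker above the floor, was at 19.0, 28.9 and 30.9 CPM in WT and at 14.4, 24.3 and 14.2 CPM in Cul5 cKO, and its part in the *Epas1* values was not tested.

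*Hif3a* (ENSMUSG00000004328, chr7:17031507-17062427, minus strand, 4 transcripts) encodes a factor whose shorter products can restrain the other 2 alpha factors. It was at 12.1, 7.27 and 11.1 CPM in WT and at 9.38, 4.03 and 5.38 CPM in Cul5 cKO. The groups overlapped, since Cul5 cKO replicate 1 was above WT replicate 2. The log2 fold change was -0.69 (SE 0.342, 95% interval -1.48 to 0.11, adjusted p = 0.300, edgeR).

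The size of the *Hif3a* difference depended on the scale. From counts scaled by TPM it was -1.22 and in the authors' log2 CPM it was -1.34, against -0.69 from summed counts, and in TPM the groups did not overlap, at 3.78, 3.0 and 3.64 in WT and 2.28, 0.881 and 1.16 in Cul5 cKO. The short transcript Hif3a-203, of 371 bases, took 10.4%, 36.7% and 37.9% of the gene's TPM in WT from estimated counts of 1.13, 3.0 and 1.0, at or under the floor of 3 counts, and was at 0 in all Cul5 cKO samples. The long transcript Hif3a-202, of 6402 bases, held nearly all reads, with 273, 152 and 43.0 counts in WT and 206, 91.9 and 121 in Cul5 cKO. Its TPM was 2.55, 1.51 and 2.26 in WT and 1.98, 0.881 and 1.16 in Cul5 cKO, and these groups overlapped. None of the *Hif3a* alternatives reached an adjusted p under 0.05, and the lowest was 0.0544.

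Per length the alpha factors lay far apart. In WT *Hif1a* was at 74.3 ± 6.36, *Hif3a* at 3.47 ± 0.415 and *Epas1* at 1.85 ± 0.0664 TPM (SD, n = 3), and in Cul5 cKO at 102 ± 12.0, 1.44 ± 0.743 and 1.07 ± 0.422 TPM. *Hif1a* made up 93.5%, 93.7% and 92.8% of their summed TPM in WT and 96.8%, 98.0% and 98.1% in Cul5 cKO. The shares of *Hif1a* thus did not overlap between genotypes, and the share of *Hif3a* includes the short transcript above.

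**Figure D3:**
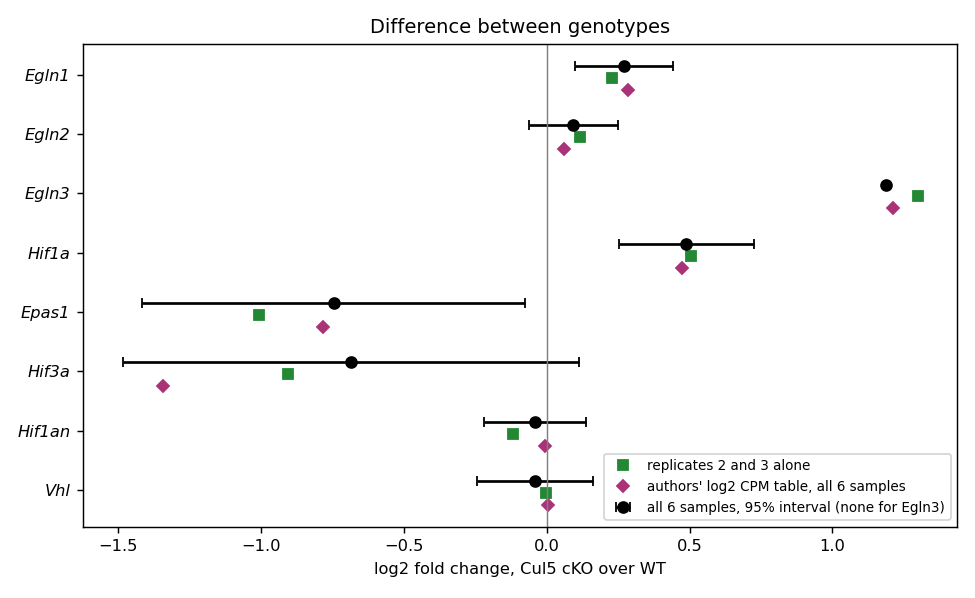
Log2 fold change of Cul5 cKO over WT for the 8 genes (x axis). Black points are edgeR estimates from all 6 samples with 95% intervals (none for *Egln3*, which was chosen by this difference), green squares the estimate from replicates 2 and 3 alone, and purple diamonds the difference in the authors' log2 CPM table. The 3 estimates lie close for *Egln1*, *Egln3* and *Hif1a*, while *Hif3a* runs from -0.69 to -1.34.

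*Hif1an* (ENSMUSG00000036450, chr19:44562850-44576274, plus strand, 2 transcripts) encodes FIH, the enzyme that hydroxylates the asparagine. It was at 59.3, 68.6 and 64.3 CPM in WT and at 63.5, 59.4 and 63.6 CPM in Cul5 cKO. The samples of the genotypes were interleaved, with a log2 fold change of -0.04 and a 95% interval of -0.22 to 0.14 (adjusted p = 0.785, edgeR).

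*Vhl* (ENSMUSG00000033933, chr6:113623959-113631633, plus strand, 4 transcripts) encodes the subunit that recognises hydroxylated HIF alpha. It was at 23.4, 21.5 and 24.0 CPM in WT and at 22.0, 21.8 and 22.9 CPM in Cul5 cKO. Again the groups overlapped, with a log2 fold change of -0.04 and a 95% interval of -0.24 to 0.16 (adjusted p = 0.853, edgeR). The intervals of both genes exclude a change as large as that of *Hif1a*, whose estimate was 0.49.

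Over the 7 genes that came in by name, the groups did not overlap with Cul5 cKO higher in 2 (*Egln1* and *Hif1a*) and lower in 1 (*Epas1*), where 14.0% of all genes tested were apart with Cul5 cKO higher and 13.5% with Cul5 cKO lower. The exact two-sided permutation test of 3 samples against 3 cannot go below p = 0.1, which *Egln1*, *Hif1a* and *Epas1* reached. By level per length, the order in WT was *Hif1a*, *Egln1*, *Egln3*, *Egln2*, *Hif1an*, *Vhl*, *Hif3a* and *Epas1*. Samples of neighbours overlapped for *Egln1* and *Egln3*, *Egln3* and *Egln2*, and *Hif1an* and *Vhl*. *Hif1an* was at 14.8 ± 1.64 and 14.5 ± 0.512 TPM and *Vhl* at 14.4 ± 1.88 and 14.2 ± 0.821 TPM in WT and Cul5 cKO (SD, n = 3). In Cul5 cKO *Egln3* moved above *Egln1* and its samples overlapped those of *Hif1a*. The other pairs of neighbours that overlapped there were *Hif1an* with *Vhl* and *Hif3a* with *Epas1*. Among all genes tested, *Egln3* stood above 69.7% by TPM in WT and above 86.8% in Cul5 cKO, and *Epas1* above 17.2% and 13.2%.

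Reads of 50 bases can be divided between the transcripts of a gene, so the transcript shares were compared as well, in the TPM of the gene. The 8 genes have 23 transcripts, of which 14 could be tested with an exact two-sided permutation test. The groups did not overlap for 4 of them (Hif1a-202, Hif3a-202, Hif3a-203 and Vhl-203), each at the smallest p of 0.1 and an adjusted p of 0.350. How often this happens over the transcripts of all genes was not computed, so the count is a description only. By gene level, 14.0% of all genes tested were apart with Cul5 cKO higher and 13.5% with Cul5 cKO lower. Hif1a-202, which starts at an exon upstream of the main start, held 14.6%, 13.1% and 11.9% of *Hif1a* TPM in WT and 15.8%, 16.2% and 14.8% in Cul5 cKO. Its own level was 11.9, 9.37 and 8.30 TPM in WT and 18.3, 15.4 and 14.0 TPM in Cul5 cKO. The main transcript Hif1a-201 was at 62.3, 55.0 and 50.3 TPM in WT and at 86.2, 72.3 and 72.0 TPM in Cul5 cKO, so both of these transcripts were higher in all Cul5 cKO samples. Hif1a-203, a further coding transcript, was at 0.230 TPM or less in each sample, and its groups overlapped. Vhl-203, a transcript without a coding sequence, had 6.99, 0 and 0 estimated counts in WT and 11, 8.28 and 6.87 in Cul5 cKO. Its share of *Vhl* thus rests on 11 estimated reads or fewer in a sample, and the coding Vhl-201 was at 11.7 ± 0.296 and 11.4 ± 0.148 TPM (SD, n = 3).

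**Figure D4:**
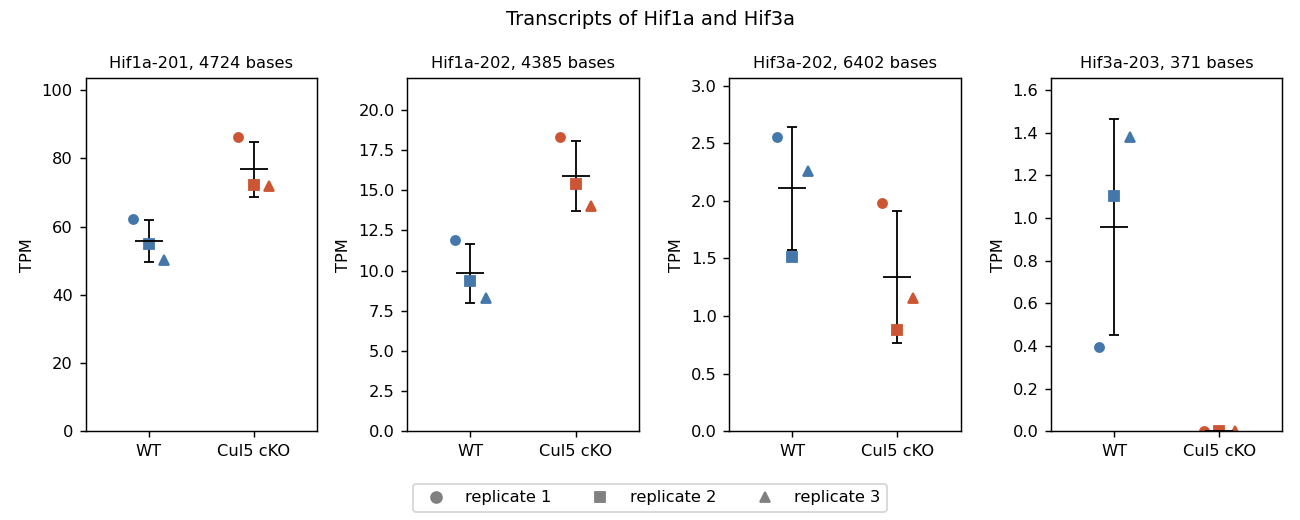
TPM (y axes from 0, own scale each) of 2 transcripts of *Hif1a* and 2 of *Hif3a* in 3 WT and 3 Cul5 cKO samples, with the mean and 1 SD. Both *Hif1a* transcripts lie higher in all Cul5 cKO samples. The long Hif3a-202 overlaps between genotypes, while the short Hif3a-203 is at 0 in Cul5 cKO and between 0.393 and 1.38 TPM in WT.

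Of the family, only *Hif1a* shares 150 bases or more at 95% identity with another gene in a search of all annotated transcripts. It shares 151 bases on the same strand with Gm49321, which held 5.5 to 16.3 estimated counts in a sample, and 196 bases on the opposite strand with Gm15283, whose counts were not used here. Against the 814 or more reads of *Hif1a* in each sample, the first can have taken only a small part.

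The genes that act beside the family were read from the same fit. The list of HIF partners holds the beta subunits, coactivators and the VHL ligase. Of its 9 genes, 0 were called by edgeR or DESeq2, where these called 1.03% and 5.36% of all genes. In limma on the authors' log2 values (6 of the 9 there) 0 were called, against 0.374% of all genes. At an unadjusted p under 0.05 (edgeR) there were 0 higher and 0 lower, against 10.9% and 10.4% of all genes. The median log2 fold change was 0.05, beside -0.01 over all genes tested. The coactivator *Crebbp* was furthest below WT at -0.35 (adjusted p = 0.238, edgeR) and became a call in replicates 2 and 3 alone, at -0.47 with an adjusted p of 0.0253. *Cited2*, which competes with HIF for coactivators, was at 0.25, *Eloc*, elongin C, at 0.20, and *Cul2*, the cullin of the VHL ligase, at 0.10 on the log2 scale (adjusted p 0.425, 0.342 and 0.428, edgeR). *Cul2* turned negative on the scales built from TPM and in the authors' values, as low as -0.21 with log2(TPM + 0.1), so its direction depended on the scale.

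Other regulators of the prolyl hydroxylases or of HIF alpha stability form a list of 15 genes, all tested. Of these, 0 were called by edgeR, DESeq2 or limma on the authors' log2 values (14 of the 15 there). Over all genes, these called 1.03%, 5.36% and 0.374%. At an unadjusted p under 0.05 (edgeR) there were 3 higher (20.0%, against 10.9% of all genes) and 0 lower (against 10.4%). The median log2 fold change was 0.08. *Siah2*, a ligase known to target EGLN3 for degradation, was at 23.1, 31.1 and 27.8 CPM in WT and 27.3, 34.0 and 38.9 CPM in Cul5 cKO. Its log2 fold change was 0.29 (adjusted p = 0.344, edgeR), and that of its relative *Siah1a* was -0.28 (adjusted p = 0.243, edgeR). *Ajuba*, which binds VHL and EGLN proteins, had the largest estimate, 1.11, from 2.65, 3.98 and 4.05 CPM in WT and 3.82, 10.4 and 8.36 CPM in Cul5 cKO (adjusted p = 0.170, edgeR). It became a call in 3 of 18 alternatives, among them replicates 2 and 3 alone, at 1.23 with an adjusted p of 0.0293 (edgeR). The chaperone *Hsp90aa1*, which protects HIF-1α, was at 0.22 (adjusted p = 0.142), and it too was below 0 on the scales built from TPM and in the authors' values, at -0.06 with log2(TPM + 0.1).

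Oxygenases that use iron and 2-oxoglutarate as the EGLN enzymes do were split in direction. Of 25 listed, 24 were tested and 0 called by edgeR, against 1.03% of all genes. At an unadjusted p under 0.05 (edgeR) there were 5 higher (20.8%, against 10.9% of all genes) and 4 lower (16.7%, against 10.4%). DESeq2 called 3 higher (*Jmjd6*, *Plod3* and *Riox2*), where it called 2.79% of all genes higher. By limma on the authors' values 0 were called, where 0.374% of all genes were. The median log2 fold change was -0.08. *Riox2*, a ribosomal histidine hydroxylase, was at 43.1, 50.7 and 49.9 CPM in WT and at 56.3, 68.5 and 70.8 CPM in Cul5 cKO (log2 fold change 0.45, adjusted p = 0.102, edgeR). The collagen lysyl hydroxylases *Plod3* and *Plod2* were at 0.53 and 0.59 (adjusted p 0.109 and 0.259, edgeR). The DNA demethylase *Tet1* was furthest below WT, at 7.94, 6.79 and 8.86 CPM in WT and 6.25, 4.08 and 3.60 CPM in Cul5 cKO (-0.74, adjusted p = 0.158). Of the 24 tested oxygenases, 10 had a log2 fold change above 0 (41.7%, against 48.8% of all genes tested).

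Of 46 genes known to be induced through HIF, with the family itself left out, 43 were tested. By edgeR 2 of them rose, 4.65% of the tested list against 0.611% of all genes, while 0 fell, against 0.418% of all genes. *Slc2a1*, the glucose transporter GLUT1, was at 95.1, 97.4 and 101 CPM in WT and at 147, 143 and 160 CPM in Cul5 cKO, a log2 fold change of 0.62 (adjusted p = 0.0159, edgeR). *Hk2*, which phosphorylates the glucose taken up, was at 106, 108 and 102 CPM in WT and at 192, 163 and 197 CPM in Cul5 cKO, a log2 fold change of 0.80 (adjusted p = 0.0159). Both genes kept a log2 fold change of 0.55 or more under all alternatives and lost the call when replicate 3 of Cul5 cKO, or replicate 2 or 3 of WT, was left out, and in limma on either scale of TPM, where *Slc2a1* also missed it in limma on the authors' values. At an unadjusted p under 0.05 there were 14 higher (32.6%, against 10.9% of all genes) and 3 lower (6.98%, against 10.4%), and the median log2 fold change was 0.22. The groups were apart with Cul5 cKO higher in 13 genes (30.2%, against 14.0% of all genes) and lower in 2 (4.65%, against 13.5%). *Ak4*, a mitochondrial adenylate kinase, was at 0.65 (adjusted p = 0.110, edgeR). The glycolytic *Tpi1* had an estimate of -1.86 from 11.8, 17.3 and 94.9 CPM in WT and 9.99, 9.03 and 12.1 CPM in Cul5 cKO, which rested on WT replicate 3, and without that sample it was -0.49. The genes of the list that were not tested were too low to pass the expression filter. The list was written with earlier results of these data known, *P4ha1*, *P4ha2* and *Kdm3a* stand in it and among the oxygenases, and many of its glycolytic genes also respond to T cell activation.

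**Figure D5:**
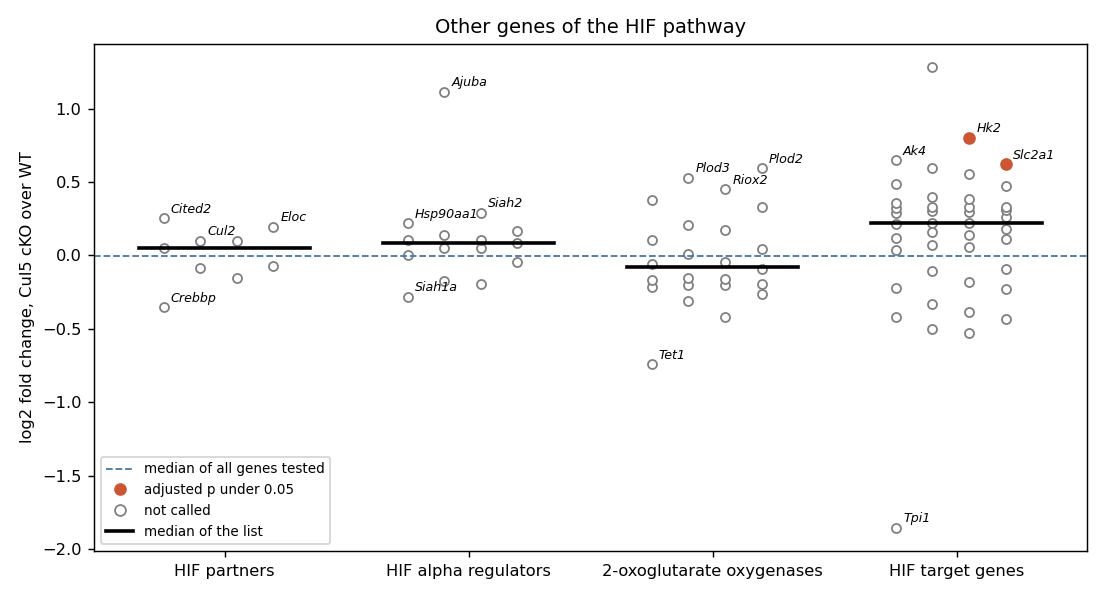
Log2 fold change of Cul5 cKO over WT (y axis) for the tested genes of 4 lists (x axis; sideways position only separates points). Filled points have an adjusted p under 0.05, thick lines are list medians and the dashed line is the median of all genes tested. Only *Hk2* and *Slc2a1* are filled, and the median of the HIF target genes is 0.22.

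The genes whose levels followed *Egln3* most closely over the 6 samples, among 8693 others with a mean of at least 10 CPM, were *Degs1* (Pearson r = 0.995), *Ctsz* (0.995), *Cers2* (0.994), *Peli2* (0.994), *Cdc42bpb* (0.993) and *Lair1* (0.992), in log2 CPM. Their Spearman rho lay between 0.829 and 1. The 6 samples fall into 2 genotypes, so any gene that was steady within them and higher in Cul5 cKO scores highly, and r is a description only. *Ctsz*, which encodes a lysosomal cathepsin, ranked the samples exactly as *Egln3* did, at 106, 96.4 and 99.2 CPM in WT and 166, 162 and 176 CPM in Cul5 cKO. *Peli2*, a ubiquitin ligase of the Pellino family, had the largest log2 fold change of the 6, 1.35, and *Cers2*, a ceramide synthase, the smallest, 0.24.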

How the data were processed

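Poly-A RNA of 3 WT and 3 Cul5 cKO cultures was sequenced in single-end reads of 50 bases. The authors ran kallisto 0.46.2 against the Ensembl reference for GRCm38 and used edgeR 3.34.0 for normalization. The deposited files hold estimated counts (not normalized, divided between the transcripts a read matches) and TPM of 119414 transcripts. A further table gives the authors' TMM-normalized log2 CPM by gene, and its fold changes and p-values were not used.

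Estimated counts were summed by gene in GENCODE vM21 (97.7% of transcripts matched), rounded, filtered with edgeR's defaults, normalized by TMM and compared with the quasi-likelihood test of edgeR 4.0.16 in R 4.3.3, with Benjamini-Hochberg adjustment over 12925 genes and a threshold of 0.05. The fit was tested on simulated data. The coefficient of variation between replicates was 16.1%. A floor of 3 counts equals 0.128 to 0.133 CPM, and 0.759 CPM in WT replicate 3, and covers counting error only. Transcript shares were tested where the mean share was at least 5% and the gene had at least 10 counts in every sample. Alternatives used limma 3.58.1 and DESeq2 1.42.0, and shared sequence was searched with blastn 2.17.0. Strand settings are not given in the sources used here.

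The genes and lists were chosen with earlier results of these data known. Named are the 8 genes, *Cul5*, every called gene of the 4 pathway lists and, where fewer than 4 of a list were called, those with the largest absolute log2 fold change and a mean of at least 1 CPM until 4 were named, and the 6 genes with the highest Pearson r with *Egln3*. Marker genes are named for label checks, and *Jmjd6* and *Pecam1* were chosen after their values were seen.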

Additional observations from a re-analysis of the deposited data

How the results depend on the processing

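*Egln3*, *Egln1*, *Egln2*, *Hif1a*, *Epas1* and *Hif3a* kept their direction in all 18 alternatives. *Hif1an*, near 0, changed sign with counts scaled from TPM (0.0124), and lay between -0.0986 and 0.0173 when single samples were left out, above 0 without WT replicate 2, and *Vhl* with counts scaled from TPM (0.0374), limma on the authors' log2 CPM (0.00575) and thinning to the total of WT replicate 3 (0.0753). Leaving out any 1 sample, the log2 fold change of *Egln3* ranged from 1.12 to 1.32, the number called of the 7 genes other than *Egln3* from 0 to 1, of all genes called from 2 to 316, of HIF target genes called from 0 to 3 and of 2-oxoglutarate oxygenases called from 0 to 1. Without replicate 2 or 3 of WT or replicate 3 of Cul5 cKO, all genes called came to 2, 2 and 3, against 133 with all 6 samples. Of the 7 genes, 0 were called, and 1 was, *Hif1a*, by DESeq2, with no filter beyond 1 count, in replicates 2 and 3 alone, after thinning and without WT replicate 1, and 2 with a term for replicate 1, *Hif1a* and *Egln1*. All genes called were 133 and came to 693 by DESeq2, 228 with no filter beyond 1 count, 60 with counts scaled from TPM, 42 by limma on the authors' log2 CPM, 27 and 30 by limma on log2(TPM + 1) and log2(TPM + 0.1), 1688 with a term for replicate 1 and 1153 in replicates 2 and 3 alone. HIF target genes called were 2, both higher in Cul5 cKO. They came to 8 by DESeq2 (7 higher, 1 lower), 1 by limma on the authors' table and 0 by limma on either scale of TPM. With the term for replicate 1 they came to 13 (12 higher, 1 lower) and in replicates 2 and 3 alone to 8 (7 higher, 1 lower). Oxygenases called were 0 and came to 3 by DESeq2, all higher, and 1 after thinning, also higher. With the term they came to 6 (5 higher, 1 lower) and in replicates 2 and 3 alone to 7 (4 higher, 3 lower). The cause of these shifts was not tested.

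Between samples with the same replicate number, the deviations from the group means correlated at r = 0.45, 0.25 and 0.03. Such deviations sum to 0 within each group of 3, and WT replicate 3 was shallow, so they cannot decide whether the numbers pair the samples. With the replicate number as a block, 1 of the 7 genes, 848 of all genes, 12 HIF target genes (11 higher, 1 lower) and 5 oxygenases (all higher) were called. *Egln3* then had a log2 fold change of 1.19. In these deviations, not every sample correlated best with its own number. The depth of WT replicate 3 limits *Epas1* and *Hif3a* most, with 29 and 44 counts there.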
